A study of Homo sapiens with 4 samples.

Results

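The 10 genes described here encode the subunits of the transcription factor NF-κB and a set of its inhibitors and ubiquitin-linked regulators. They were taken by symbol from a list of well-known pathway members, and all 10 were found among the 23228 genes of the count tables. The list was written with earlier results of these data known. ES2, an established human ovarian cancer cell line, was grown in phenol red-free RPMI medium with 5% charcoal-stripped serum and treated for 24 h with vehicle (2 samples) or with liquiritigenin (Liq, 2 samples). Liq is a plant flavanone used by the study as an agonist of estrogen receptor β (ERβ), at 100 μM in its methods. The question was which genes of the NF-κB system changed at the RNA level when cells received Liq. Total RNA was sequenced, and 34573053 to 48933893 reads per sample were counted on genes. Nothing in the labels says that the samples of a group came from separate cultures, so the p-values measure the spread between these samples, which may be technical.

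NF-κB is a family of dimers built from RELA (p65), RELB, REL (c-Rel), NFKB1 and NFKB2. NFKB1 and NFKB2 are made as long precursors (p105 and p100) that are trimmed to the DNA-binding p50 and p52. In resting cells the dimers are held in the cytoplasm by IκB proteins such as NFKBIA (IκBα), NFKBIB (IκBβ) and NFKBIE (IκBε). In the canonical pathway the IKK complex marks IκB for destruction and frees RELA dimers. In the non-canonical pathway the kinase MAP3K14 (NIK) drives the trimming of p100, which frees RELB with p52. Several of these genes are themselves textbook targets of NF-κB. NFKBIA and TNFAIP3, which encodes the ubiquitin-editing enzyme A20, are the classical negative feedback genes. BIRC3 encodes the ubiquitin ligase c-IAP2, which acts at the TNF receptor and restrains NIK.

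The promoters of several of these genes hold the sequence pattern that NF-κB itself binds. RefSeq promoter windows (GRCh38.p14, 250 bases before to 50 after an annotated start, a newer build than the hg19 of the counts) were listed for 8 of the 10 genes. RELB and NFKBIE had no window. The windows were searched on both strands for the κB consensus, the 10-base pattern that NF-κB dimers bind, which opens with GGG and closes with CC. At least 1 match was found in 7 of the 8 genes (87.5%), against 1937 of 27305 symbols with a window (7.09%). RELA was the gene with no match in either of its windows. A match is a description of letters and not a measured binding site. The 250 bases before the start are given here for 4 members whose RNA was lower with Liq and for RELA, the member without a match. They run 5′ to 3′ on the strand of the gene, and capitals mark κB matches on either strand.
BIRC3, chr11:102317234-102317483, strand +: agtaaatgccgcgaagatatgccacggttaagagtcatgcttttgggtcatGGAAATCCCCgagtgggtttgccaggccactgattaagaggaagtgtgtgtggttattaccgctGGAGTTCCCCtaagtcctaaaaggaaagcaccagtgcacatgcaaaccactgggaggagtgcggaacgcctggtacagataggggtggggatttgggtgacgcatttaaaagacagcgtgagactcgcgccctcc
TNFAIP3, chr6:137867009-137867258, strand +: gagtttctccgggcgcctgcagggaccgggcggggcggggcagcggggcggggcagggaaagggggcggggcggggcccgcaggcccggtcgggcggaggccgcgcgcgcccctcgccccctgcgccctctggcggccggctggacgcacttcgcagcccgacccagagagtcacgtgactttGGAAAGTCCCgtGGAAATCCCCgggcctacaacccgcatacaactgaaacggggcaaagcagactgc
NFKBIA, chr14:35404750-35404999, strand -: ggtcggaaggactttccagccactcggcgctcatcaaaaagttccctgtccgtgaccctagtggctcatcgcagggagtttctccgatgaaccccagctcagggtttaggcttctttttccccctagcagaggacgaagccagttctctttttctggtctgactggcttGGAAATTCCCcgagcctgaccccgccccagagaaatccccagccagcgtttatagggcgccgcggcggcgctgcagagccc
NFKB1, chr4:102501109-102501358, strand +: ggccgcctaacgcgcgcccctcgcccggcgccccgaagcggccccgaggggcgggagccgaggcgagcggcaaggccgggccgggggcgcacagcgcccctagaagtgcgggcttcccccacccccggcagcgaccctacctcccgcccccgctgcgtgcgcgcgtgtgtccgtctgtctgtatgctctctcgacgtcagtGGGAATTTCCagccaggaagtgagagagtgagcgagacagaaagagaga
RELA, chr11:65662917-65663166, strand -: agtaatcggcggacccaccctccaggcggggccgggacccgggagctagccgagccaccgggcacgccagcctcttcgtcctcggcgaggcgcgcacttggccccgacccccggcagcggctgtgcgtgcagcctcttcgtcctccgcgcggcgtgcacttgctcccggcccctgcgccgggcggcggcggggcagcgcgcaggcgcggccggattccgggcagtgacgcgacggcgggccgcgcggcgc

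Counted from the annotated start, the first base of the match lay at -49 in NFKB1 (GGGAATTTCC) and at -81 in NFKBIA, where the same 10 letters stand on the opposite strand. TNFAIP3 had a pair of matches 2 bases apart, beginning at -67 and -55, and BIRC3 had matches beginning at -199 and -135. REL and NFKBIB, whose RNA did not pass the test, also carried a κB match, beginning at -47 in REL and at -28 in NFKBIB. The other window of NFKB1 and the other window of NFKBIB held no match. NFKB2 had matches in 2 of its 3 windows, among them GGGACTTTCC beginning at -21. The pattern was thus present both in genes that were lower with Liq and in genes that did not pass the test.

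Treatment with Liq was accompanied by lower RNA of 5 of the 10 genes, RELB, NFKB1, NFKBIA, TNFAIP3 and BIRC3, and by higher RNA of none (adjusted p under 0.05, edgeR's quasi-likelihood test). The largest decreases were those of BIRC3 and RELB, at 36.3% and 34.4% below vehicle. NFKB1, NFKBIA and TNFAIP3 were 21.9% to 23.9% below vehicle. RELA, REL, NFKB2, NFKBIB and NFKBIE did not pass the test. All 10 genes passed the filter on low counts, as did 13546 genes in all, of which 11.3% were called lower and 12.6% called higher in the same fit. The median log2 fold change was -0.26 over the 10 genes and 0.01 over all tested genes. As the 10 genes were chosen with earlier results of these data known, these comparisons with all tested genes are descriptive. A fold change of at least 1.5, the additional threshold of the study, was met by 2 of the 10 genes downward and by 0 upward, against 2.16% and 4.29% of all tested genes. At an unadjusted p under 0.05, 0 of the 10 genes were higher, and the DESeq2 Wald test called 0 of them higher as well. In bulk RNA the share of cells that carry a transcript and its amount per cell cannot be told apart. Levels are in CPM, read counts adjusted for library size by the TMM method, and differences as log2 fold changes of Liq over vehicle with their standard error (SE).

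**Figure D1:**
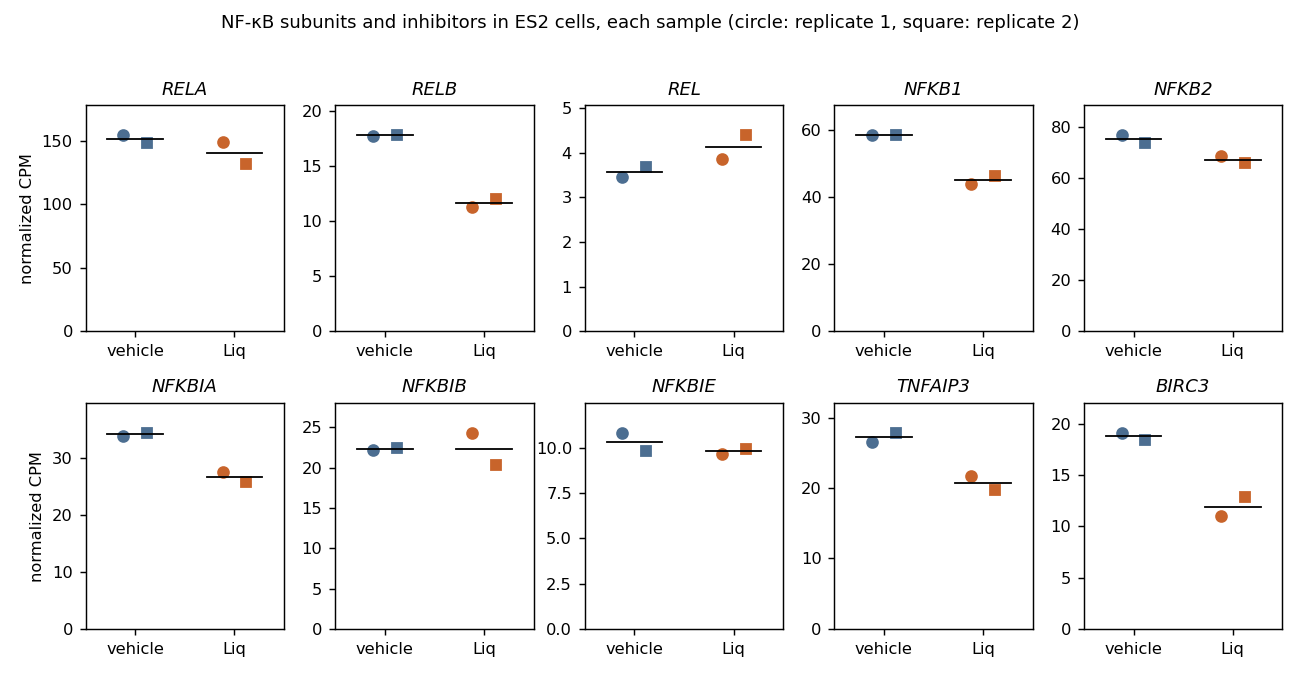
Normalized CPM of each of the 10 genes in the 4 samples, with circles for replicate 1, squares for replicate 2 and a bar for the group mean (n = 2 per group). The 2 Liq samples of RELB, NFKB1, NFKBIA, TNFAIP3 and BIRC3 lie under the lower vehicle sample, while the groups of RELA, NFKBIB and NFKBIE overlapped.

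Among the subunits, RELB (chromosome 19 from 45504719 to 45541450, GRCh37), the partner of p52 in the non-canonical pathway, changed most. It was at 17.7 and 17.8 CPM in the vehicle samples and at 11.22 and 11.99 CPM in the Liq samples. The Liq samples lay well below the vehicle samples, with a gap wider than the spread within either group. The log2 fold change was -0.61 (SE 0.10, adjusted p = 8.537e-05, edgeR), a 1.525-fold decrease. It passed the test in all 11 alternatives, but its size stood close to the 1.5-fold limit and fell short of it, at -0.565 on the log2 scale when Liq replicate 1 was left out and at -0.582 with upper-quartile normalization.

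NFKB1 (chromosome 4 from 103422487 to 103538459), the gene of p105 and p50, was at 58.4 CPM in each vehicle sample and at 43.7 and 46.2 CPM in the Liq samples. The groups did not overlap, and the log2 fold change was -0.38 (SE 0.08, adjusted p = 0.001281, edgeR). This decrease was smaller than 1.5-fold and passed the test in all 11 alternatives. NFKB2 (chromosome 10 from 104153867 to 104162281), the gene of p100 and p52, was at 77.0 and 73.6 CPM with vehicle and at 68.5 and 65.9 CPM with Liq. Both Liq samples were again the lower ones, but the difference did not pass (log2 fold change -0.17, SE 0.08, adjusted p = 0.1246, edgeR).

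RELA (chromosome 11 from 65421070 to 65430561), the main transactivating subunit of the canonical pathway, was at 155 and 148 CPM in the vehicle samples and at 149 and 131 CPM in the Liq samples. Liq replicate 1 lay between the vehicle samples, so the groups overlapped. The 95% interval of the log2 fold change ran from -0.27 to 0.04 and thus held no decrease of 1.5-fold. Without Liq replicate 1, RELA passed the test at -0.21 (adjusted p = 0.04162, edgeR), the single pass among 11 alternatives whose adjusted p-values ran up to 0.8662. REL (chromosome 2 from 61108626 to 61158747), best known from lymphocytes, had 142 and 138 counts with vehicle and 137 and 221 with Liq, or 3.45 and 3.69 against 3.85 and 4.403 CPM. It was the only subunit whose Liq samples both lay above the vehicle samples, as 31.5% of all tested genes did, and its difference did not pass (log2 fold change 0.22, SE 0.15, adjusted p = 0.3249, edgeR).

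**Figure D2:**
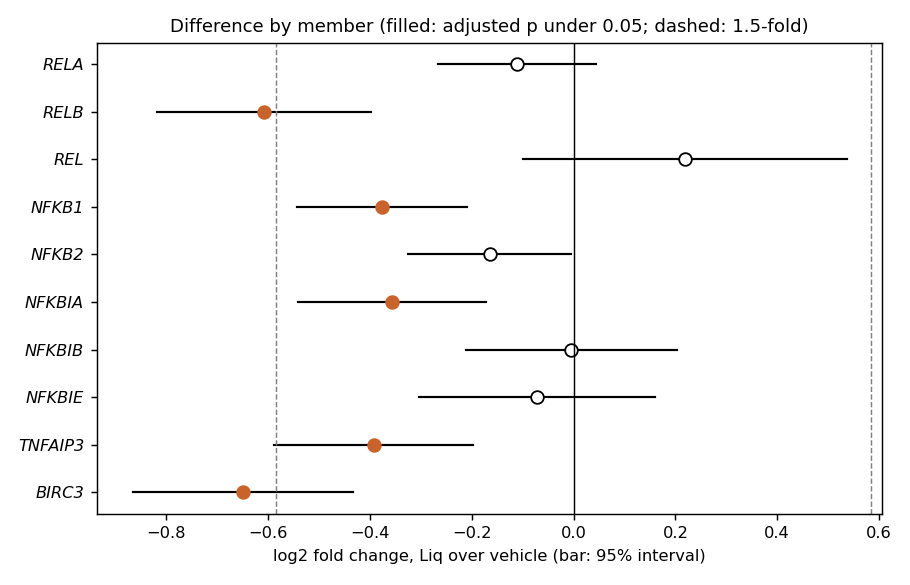
Log2 fold change of Liq over vehicle for each gene with its 95% interval from edgeR, filled where the adjusted p was under 0.05, with dashed lines at 1.5-fold. BIRC3 (-0.65) and RELB (-0.61) lie beyond the lower dashed line, NFKB1, TNFAIP3 and NFKBIA between it and 0, and the other 5 genes are open circles.

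Of the 3 IκB genes, NFKBIA alone passed the test. NFKBIA (chromosome 14 from 35870285 to 35873955) encodes IκBα, which is rapidly destroyed and resynthesized in each round of canonical signaling. It was at 33.8 and 34.4 CPM in the vehicle samples and at 27.5 and 25.7 CPM in the Liq samples. The groups were separate, and the log2 fold change was -0.36 (SE 0.09, adjusted p = 0.004899, edgeR). The call was lost when a vehicle sample was left out, with adjusted p-values of 0.06122 without replicate 1 and 0.0835 without replicate 2 (edgeR), while the log2 fold change stayed between -0.405 and -0.308 over the 11 alternatives. Across these its adjusted p ran from 0.0006097 to 0.0835.

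NFKBIB (chromosome 19 from 39390340 to 39399533), which retains RELA and REL dimers with slower turnover, was at 22.2 and 22.4 CPM with vehicle and at 24.3 and 20.3 CPM with Liq. The Liq samples stood on either side of the vehicle samples, and the log2 fold change was close to 0, with a 95% interval from -0.21 to 0.20. The gene overlaps SIRT2 on the opposite strand, and the strand setting of the counting is not given in the sources used here. Opposite-strand genes that are not among the counted ones also overlap RELA (RELA-DT), TNFAIP3 (WAKMAR2), BIRC3 and NFKB1. REL overlaps a long noncoding RNA gene and RNU4-51P on its own strand, which are not among the counted ones either. Whether their reads entered the counts of these members was not tested. NFKBIE (chromosome 6 from 44225903 to 44233525), a further inhibitor of RELA and REL, was at 10.8 and 9.80 CPM with vehicle and at 9.67 and 9.94 CPM with Liq. Its groups overlapped as well, and the 95% interval ran from -0.30 to 0.16. For both genes the interval held no 1.5-fold change in either direction. Whether NFKBIA differed from NFKBIB or NFKBIE in its response was not tested.

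The ubiquitin-linked regulators both decreased. TNFAIP3 (chromosome 6 from 138188351 to 138204451), whose product A20 shuts off signaling from the TNF receptor and Toll-like receptors, was at 26.6 and 27.9 CPM in the vehicle samples and at 21.7 and 19.8 CPM in the Liq samples. The groups were separate, and the difference was -0.39 on the log2 scale (SE 0.10, adjusted p = 0.003495, edgeR). Without vehicle replicate 2 the adjusted p was 0.07421 (edgeR), and it was at most 0.0272 in the other 10 alternatives. BIRC3 (chromosome 11 from 102188215 to 102210134) was at 19.1 and 18.5 CPM with vehicle and at 11.0 and 12.9 CPM with Liq. Both Liq samples lay far below both vehicle samples, and the log2 fold change was -0.65 (SE 0.11, adjusted p = 5.282e-05, edgeR). It passed the test in all 11 alternatives, and without Liq replicate 1 the log2 fold change was -0.549, short of 1.5-fold. Its neighbor and close relative BIRC2 (c-IAP1, chromosome 11 from 102217942 to 102249401) was at 279 and 300 CPM with vehicle and at 267 and 303 CPM with Liq. The BIRC2 groups overlapped, with a 95% interval from -0.17 to 0.13, and the sign of its log2 fold change turned to 0.061 with loess offsets.

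In all, both Liq samples lay below both vehicle samples in 6 of the 10 genes, namely the 5 that passed and NFKB2, against 30.2% of all tested genes. The levels of the 10 genes differed far more between genes than between treatments. Per kb of exon of the canonical transcript, RELA was the most abundant at 60.1 ± 1.8 CPM per kb in vehicle (SD, n = 2). It was followed by NFKB2 at 25.0 ± 0.8, NFKBIA at 21.9 ± 0.3, NFKBIB at 18.7 ± 0.1 and NFKB1 at 14.4 ± 0.02 CPM per kb. Lower levels were found for RELB (7.86 ± 0.03), TNFAIP3 (5.84 ± 0.19), NFKBIE (4.40 ± 0.31) and BIRC3 (2.73 ± 0.07 CPM per kb). REL was the least abundant at 0.321 ± 0.015 CPM per kb. In vehicle no neighbors in this order overlapped. In Liq, NFKBIB (18.7 ± 2.4 CPM per kb) and NFKBIA (17.1 ± 0.8 CPM per kb) changed places but overlapped. TNFAIP3 (4.45 ± 0.30 CPM per kb) and NFKBIE (4.18 ± 0.08 CPM per kb) also overlapped in Liq, which they did not in vehicle. The transcripts that ES2 cells use may differ from the canonical ones, REL with its exon length of 11108 bp in particular.

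**Figure D3:**
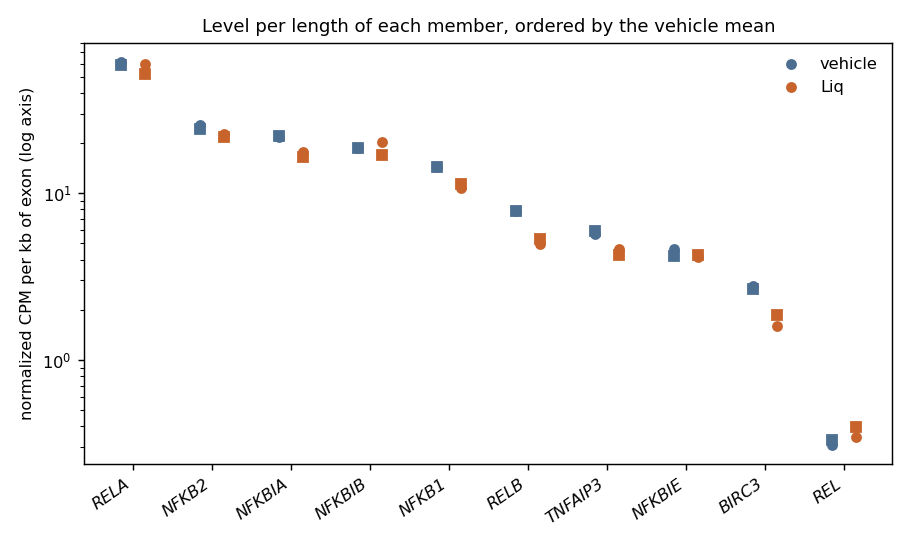
Normalized CPM per kb of canonical exon length on a log axis for each gene and sample, ordered by the vehicle mean, with circles for replicate 1 and squares for replicate 2. RELA stands at the top near 60 CPM per kb and REL at the bottom under 0.4 CPM per kb, and the distance between vehicle and Liq is small beside this range.

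Ratios of counts within a library, picked after the values were seen, need no scaling between libraries. For every 100 reads of RELA there were 11.43 and 12.01 reads of RELB with vehicle and 7.52 and 9.13 with Liq. For NFKBIA there were 21.8 and 23.2 reads per 100 of RELA with vehicle and 18.4 and 19.6 with Liq. The RNA of RELB and NFKBIA was lower in relation to RELA in both Liq samples. For REL, which did not pass the test, it was higher. Its reads per 100 of RELA were 2.23 and 2.49 with vehicle and 2.58 and 3.35 with Liq. Among single genes, both Liq samples lay below both vehicle samples in 30.2% of all tested genes and above them in 31.5%. Such shares were not computed for ratios. The reads of BIRC3 per 100 of BIRC2 went from 6.86 and 6.15 to 4.11 and 4.24, a mean shift of -0.64 on the log2 scale. The reads of TNFAIP3 per 100 of CYLD, the gene of another deubiquitinase of the pathway, went from 42.7 in each vehicle sample to 38.6 and 31.8. Ratios within families largely follow the lower counts of NFKBIA and NFKB1, their denominators, and are no separate finding. NFKBIB stood at 65.8 and 65.2 reads per 100 of NFKBIA with vehicle and at 88.4 and 79.0 with Liq. NFKB2 stood at 132 and 126 reads per 100 of NFKB1 with vehicle and at 157 and 142 with Liq. Since the ratios were picked from their values, no test was run on them, and an exact permutation test of 2 samples against 2 cannot give a p-value under 0.3333.

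**Figure D4:**
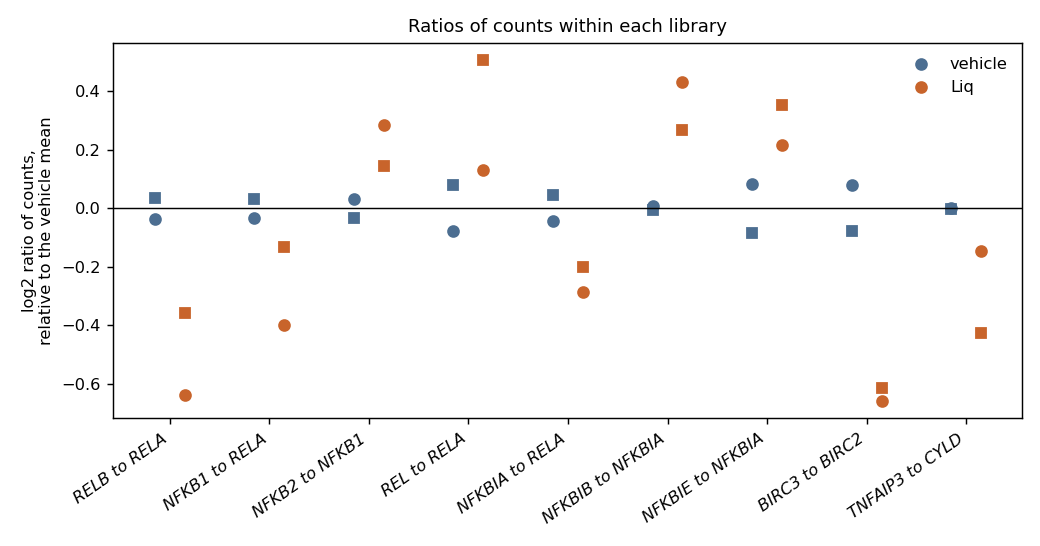
Log2 ratio of the counts of a gene pair within each library, set to 0 at the vehicle mean, with circles for replicate 1 and squares for replicate 2 (n = 2 per group). The ratio of BIRC3 to BIRC2 lies 0.64 below vehicle on average, and those of NFKBIB and NFKBIE to NFKBIA lie above vehicle in both Liq samples.

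The wider pathway was described with lists of well-known genes. Of 43 tested genes that act upstream (IκB-like proteins, kinases, adaptors, deubiquitinases and receptors), 5 were called lower and 2 higher, and 0 of them reached 1.5-fold in either direction. These counts changed when single samples were left out, and so did the counts over all tested genes. The 5 lower genes are 11.6% of the 43, beside 11.3% of all tested genes, and the median log2 fold change was 0.02. The 2 higher genes of the 43 stand beside 12.6% of all tested genes called higher. Of 19 tested target genes, 12 (63.2%) were called lower and 0 higher, and the median was -0.41. No target gene was higher at an unadjusted p under 0.05, nor with the DESeq2 Wald test. The share of the 10 subunit and inhibitor genes that were lower was 50%. The 10 genes and the lists were chosen with earlier results of these data known, and differences between these shares were not tested.

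Upstream, the core IKK subunits CHUK (IKKα) and IKBKB (IKKβ) did not pass the test, at 69.3 and 73.4 against 67.0 and 68.5 CPM for CHUK and at 104 and 106 against 97.8 and 91.8 CPM for IKBKB. IKBKB passed in 1 of 11 alternatives, with the replicate number as a block (-0.147 on the log2 scale, adjusted p = 0.03422, edgeR). The regulatory subunit IKBKG (NEMO), whose near-identical partial copy on the X chromosome makes its count uncertain, was at 6.74 and 5.10 against 8.49 and 6.95 CPM (adjusted p = 0.06004, edgeR). It passed in 4 of 11 alternatives, among them those without vehicle replicate 1 (0.589 on the log2 scale) and without Liq replicate 2 (0.515). MAP3K14, the NIK kinase of the non-canonical pathway, rose from 50.1 and 50.5 CPM to 66.3 and 59.4 CPM. The log2 difference was 0.32 with an SE of 0.08 (adjusted p = 0.005643, edgeR). It failed the test without vehicle replicate 1 (adjusted p = 0.1093) and without vehicle replicate 2 (0.08574, edgeR), and its adjusted p was as low as 7.27e-05 in another of the 11 alternatives. IKBKE, a kinase related to IKK, fell from 9.92 and 10.2 CPM to 7.12 and 6.38 CPM. Its log2 fold change was -0.58 with an SE of 0.12 (adjusted p = 0.000799, edgeR).

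Among adaptors, IRAK1 and MYD88 of interleukin 1 and Toll-like receptor signaling and UBE2N, an enzyme that builds ubiquitin chains, were called lower, with log2 fold changes of -0.34, -0.27 and -0.31. MYD88 passed in 6 of 11 alternatives, UBE2N in 9 and IRAK1 in 10. Without vehicle replicate 1 all of these calls were lost, at log2 fold changes of -0.228 for MYD88, -0.295 for UBE2N and -0.300 for IRAK1. Without vehicle replicate 2 those of MYD88 (-0.306) and UBE2N (-0.318) were lost, and without Liq replicate 1 that of MYD88 (-0.264). TNFRSF1A, the main receptor of TNF, rose by 0.42 and TNFRSF12A, the receptor of TWEAK, fell by 0.46 on the log2 scale. Of the 7 deubiquitinase genes and partners 0 passed with edgeR or DESeq2, and 1 was lower at an unadjusted p under 0.05. They included CYLD (62.2 and 65.3 against 56.3 and 62.3 CPM) and TNIP1 (162 and 152 against 147 and 135 CPM), which passed in 2 of 11 alternatives, without Liq replicate 1 (-0.216 on the log2 scale) and with the replicate number as a block (-0.153). Of the 3 IκB-like genes 0 passed with either tool, or at an unadjusted p under 0.05. BCL3 was at 4.28 and 4.06 against 4.08 and 3.41 CPM, NFKBIZ at 19.9 and 22.7 against 20.3 and 19.1 CPM, and NFKBID had 52 to 87 counts per sample.

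Several target genes had larger decreases than any of the 10 subunit and inhibitor genes. IL1B, which encodes the cytokine interleukin 1β, had a log2 fold change of -2.38, the apoptosis inhibitor BCL2A1 of -1.72 and the prostaglandin synthase PTGS2 of -1.09. The adhesion molecules VCAM1 and ICAM1 had log2 fold changes of -0.997 and -0.82, the chemokine CXCL8 (listed as IL8) of -0.91 and the early response gene IER3 of -0.91. BCL2L1, PLAU and CFLAR had log2 fold changes of -0.49, -0.38 and -0.35. CFLAR lost its call without vehicle replicate 2 (-0.285). TNF itself had 0 counts in 3 of the 4 samples and 2 counts in Liq replicate 1, so no change was detectable at this depth. Many of these targets were chosen with earlier results of the same samples known, and their decrease is not independent support for that of the 10 genes.

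**Figure D5:**
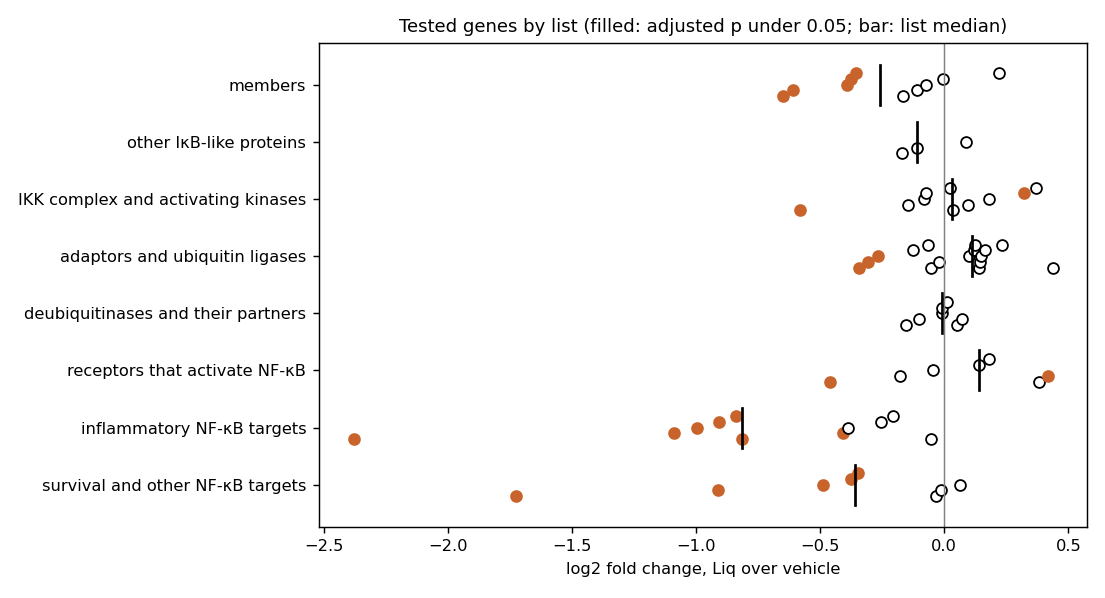
Log2 fold change of Liq over vehicle for every tested gene of the 10 members and of the 7 lists of other pathway genes, filled where the adjusted p was under 0.05, with a bar at the median of each list. The members (median -0.26) lie between the upstream lists, whose medians lie between -0.11 and 0.14, and the inflammatory targets (median -0.82).

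The label of the cells was checked against marker genes. The epithelial keratins KRT7, KRT8 and KRT18 were expressed (871 counts or more in every sample), KRT7 called higher and KRT18 lower with Liq, whereas EPCAM and KRT19 had at most 3 counts and CDH1 had 0. The 6 epithelial markers summed to 453 to 494 CPM in vehicle and 528 to 574 CPM in Liq. Of the ovarian carcinoma markers, PAX8 had 12 to 49 counts and WT1 98 to 181, both lower with Liq, and MUC16 and NAPSA had at most 8. The 5 leukocyte markers summed to 0.122 to 0.160 CPM in vehicle and 0.140 to 0.394 CPM in Liq, with CD3E at 0. Of 3 endothelial markers, CDH5 had 1712 to 2239 counts and did not pass the test, and PECAM1 and VWF had at most 10. Of the estrogen receptors, ESR2, the gene of ERβ, had 4 and 7 counts with vehicle and 5 and 14 with Liq, and ESR1 had 17 to 34 counts. The part of these differences in the results was not tested.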

How the data were processed

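Total RNA of ES2 cells, 2 vehicle and 2 Liq samples, was sequenced from TruSeq libraries. According to the submitters' processing notes the authors used bcl2fastq 2.17.1.14, TopHat2 2.0.8b with hg19, and HTSeq, whose version, mode and strand setting are not given in the sources used here. The deposited values are raw read counts per gene, 1 table per sample, made by the authors without normalization, filtering or pooling. HTSeq tallies of reads off genes were left out of the tests. Reads that aligned to several places were not counted on genes, which lowers genes with close copies. Their tally was 35.63% to 36.23% of everything tallied. It may hold a read more than once, so it is not given as a share of reads.

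Genes were kept by filterByExpr (minimum count 10, minimum total 15), which left 13546 of 23228. Counts were normalized by TMM and tested with edgeR 4.0.16 (glmQLFit and glmQLFTest, R 4.3.3) without a replicate block, with Benjamini-Hochberg adjustment over all tested genes. A gene was called at an adjusted p under 0.05, and calls of at least 1.5-fold are given apart. The SE is the log2 fold change divided by the square root of F. The alternatives were DESeq2 size factors, upper-quartile normalization, loess offsets along the expression level (span 0.3), no filter, a minimum of 10 counts in all 4 samples, the Wald test of DESeq2 1.42.0, a replicate block, and each sample left out. The fits were run on counts simulated from the fitted model, with set changes larger than those of the 10 genes. That run checks the code and not the calls. The biological coefficient of variation was 0.0575. A floor of 3 counts equals 0.061 to 0.087 CPM in the unscaled libraries. The intervals cover the spread between these samples only, which the quasi-likelihood fit estimates for each gene partly from all tested genes.

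The 10 genes, the pathway lists and the marker lists were chosen with earlier results of these data known. Some marker genes are not reported here. All 10 genes are named, and from each list up to 5 called genes with the smallest p-values, or 2 where none was called, besides a fixed set of central genes. Gene positions and exon lengths are from GENCODE v44 lifted to GRCh37, which is not the annotation used for counting. CXCL8 and OTULIN were matched by their older symbols IL8 and FAM105B.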

Additional observations from a re-analysis of the deposited data

How the results depend on the processing

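Of 110 values of the 10 genes under the 11 alternatives, 101 kept their direction and their side of the threshold. RELB, NFKB1 and BIRC3 passed the test in all 11. In 4 of these a sample was left out, so that 1 sample stood for its group and was assumed to vary like the samples of the other group. The calls lost were those of NFKBIA without either vehicle sample and of TNFAIP3 without vehicle replicate 2. The number of members called lower ranged from 3 (without vehicle replicate 2) to 6 when each sample was left out, and the number called lower by at least 1.5-fold from 0 (without Liq replicate 1) to 2, with 1 under upper-quartile normalization. No member was called higher under any alternative. The sign of NFKBIB, near 0 throughout, turned to 0.023 with upper-quartile normalization, 0.001 without vehicle replicate 2 and 0.123 without Liq replicate 2, against -0.136 without Liq replicate 1. That of NFKBIE turned to 0.001 without vehicle replicate 1, against -0.142 without vehicle replicate 2.

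Upstream genes called lower ranged from 2 to 7 and called higher from 2 to 6 when each sample was left out, and 4 were called higher without the filter on low counts. Target genes called lower ranged from 10 to 13. Over all genes, 608 to 1814 were called lower and 805 to 1966 higher when each sample was left out, the lowest counts without vehicle replicate 1 (676 lower and 866 higher without vehicle replicate 2), and the DESeq2 Wald test called 1093 higher. The sign of BIRC2 turned to 0.007 with upper-quartile normalization, 0.061 with loess offsets, 0.033 without vehicle replicate 2 and 0.066 without Liq replicate 1, against -0.114 without Liq replicate 2. That of NFKBID turned to -0.102 with loess offsets and -0.216 without vehicle replicate 1, against 0.446 without vehicle replicate 2. The cause of these shifts was not tested.

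With the replicate number as a block, NFKB2 also passed (log2 fold change -0.164, adjusted p = 0.0213 from edgeR, against 0.02 to 0.59 over all its alternatives), 8 upstream genes were called lower and 5 higher, and 2474 of all genes were called lower. Deviations from the group means correlated at 0.0483 across genes between same-numbered samples, and the labels give no reason to pair them, so the paired fit is only an alternative. Depth limits NFKBID (52 to 87 counts), and TNF and ESR2 were too low to be tested.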
